A study of Homo sapiens with 6 samples.

Results

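Transcripts of 10 genes that detect double-stranded RNA inside the cell, or carry that signal onward, were compared between gastric cancer cells with and without an siRNA against RBM8A. The genes were DDX58, IFIH1, DHX58, TLR3, EIF2AK2, ADAR, MAVS, TBK1, IRF3 and IRF7. They were taken by symbol from a gene table of 58735 rows, and all 10 were found. The cells were AGS, an established human gastric adenocarcinoma line labelled wild type and described as stomach tissue. One group received a control siRNA (siNC) and the other an siRNA against RBM8A (siRBM8A), both delivered with the lipid reagent Lipofectamine, and RNA was taken 48 h later. Each group held 3 biological replicates, and the 6 libraries carried a single batch label. The labels name neither the sequences nor the number of the siRNAs. The descriptions of the siRBM8A libraries carry an index beyond the replicate number, and the labels do not say what it means. All libraries came from transfected cells of 1 line, and untransfected cells were not analysed here. Levels are FPKM, fragments scaled to gene length and to a factor per library. The length that gave whole fragments was that of all annotated exon bases of a gene. Levels of different genes therefore also depend on which exons are annotated.

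Cells recognise double-stranded RNA, a product of viral replication, with receptors in the cytosol and in endosomes. The cytosolic receptors RIG-I (DDX58) and MDA5 (IFIH1) act through the mitochondrial adaptor MAVS, which leads to activation of the kinase TBK1 and of the transcription factors IRF3 and IRF7, and so to interferon production. Interferon in turn raises the transcripts of many of the sensors. Small interfering RNAs are themselves short RNA duplexes, and both groups of this study were given siRNA.

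Between 14838527 and 16561306 fragments per library were recovered from the values. RBM8A, the targeted gene, was at 15.3, 13.2 and 14.8 FPKM in siNC replicates 1 to 3 and at 3.25, 2.23 and 3.38 FPKM in siRBM8A, so that the groups did not overlap. Its level in siRBM8A was 20.5% of that in siNC (log2 fold change -1.97, SE 0.14, adjusted p = 0.00544, limma). Without siRBM8A replicate 3 the adjusted p was 0.0544. Exons of genes on the opposite strand overlap 25% of its exon bases. Of 9 epithelial markers 8 had a mean of at least 1 FPKM, and their summed level was 1712 to 2191 FPKM with siNC and 1684 to 2337 FPKM with siRBM8A. The gastric mucin gene MUC5AC was below 1 FPKM. Of 4 fibroblast markers DCN and LUM were at 0 in every library, and the summed level was 3.42 to 4.65 FPKM with siNC and 3.45 to 4.50 FPKM with siRBM8A. The 3 endothelial markers summed to at most 0.101 FPKM in any library. The leukocyte marker PTPRC was at 0 in every library, while the summed level of the 6 leukocyte markers was 131 to 148 FPKM with siNC and 95.0 to 108 FPKM with siRBM8A. That sum was mostly LYZ, lysozyme, which gastric epithelium also makes. LYZ and ITGAX, a leukocyte integrin chain, fell in siRBM8A (log2 fold change -0.49 and -0.64, adjusted p = 0.0432 and 0.0446, limma), and their part in the results was not tested.

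Of the 10 genes, 3 fell in siRBM8A and 0 rose: IFIH1, ADAR and TLR3. Across all 12678 genes that averaged at least 1 FPKM, 5.59% were called in either direction, 3.19% lower and 2.41% higher. A call is a Benjamini-Hochberg adjusted p under 0.05 over all tested genes, from limma on log2(FPKM + 1), a scale that understates the change of low genes. Of the calls over all genes 43.0% were higher, and 58.3% were under scaling to total fragments, where the same number of the 10 was called. All 10 passed the filter. In RNA from whole cultures, fewer cells that express a gene and less RNA per cell cannot be told apart. The median log2 fold change of the 10 was -0.44, against -0.01 over all genes tested, and 8 of 10 were negative, against 51.4% of all genes. With a GC correction the median of the 10 was -0.39, against 0.004 over all genes tested. The groups did not overlap for 4 of the 10, all lower in siRBM8A, against 31.3% of all genes, 16.5% lower and 14.8% higher. The exact two-sided permutation test reached p = 0.1 for these 4, the smallest that 3 libraries against 3 allow, and between 0.2 and 0.6 for the others.

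**Figure D1:**
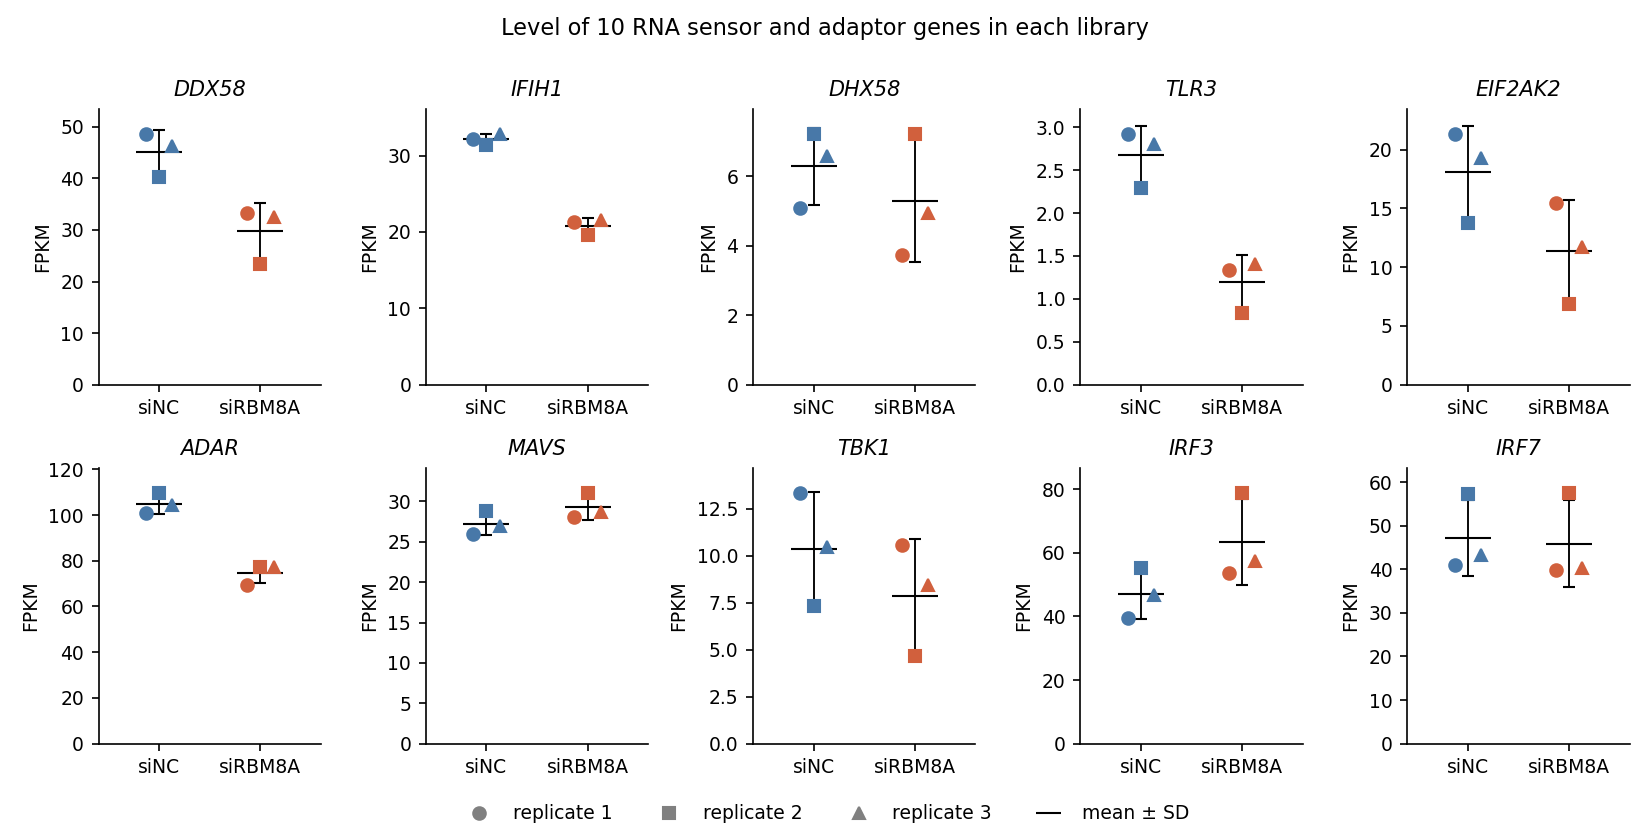
Level in FPKM (vertical axes, from 0) of the 10 genes in each library, by siRNA (horizontal axes); points are libraries, with the mean and SD of the 3 replicates of each group. DDX58, IFIH1, TLR3 and ADAR have every siRBM8A library below every siNC library, while the other 6 genes overlap.

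ADAR had the highest FPKM of the 10 in both groups, with a mean of 105 FPKM in siNC, and TLR3 had the lowest, at 2.68 FPKM. Between them in siNC came IRF3, IRF7, DDX58, IFIH1, MAVS, EIF2AK2, TBK1 and DHX58, in falling order of the mean. The ranges of IRF3, IRF7 and DDX58 overlapped in siNC, so their order there is not resolved. Every other neighbouring pair in that order was separated in siNC. In siRBM8A the ranges of ADAR and IRF3, of IRF3 and IRF7, of DDX58 and MAVS, of EIF2AK2 and TBK1, and of TBK1 and DHX58 overlapped. IFIH1 was above MAVS in every siNC library and below it in every siRBM8A library. The annotated exon bases of these genes, 5108 for IFIH1 and 11771 for MAVS, enter that comparison.

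The RIG-I-like receptors are a family of cytosolic RNA helicases. RIG-I binds short duplexes with triphosphate ends and MDA5 binds long duplexes, while LGP2 (DHX58) lacks the signalling domains of the other members and modulates them. IFIH1 was at 32.1, 31.4 and 32.8 FPKM in siNC and at 21.3, 19.5 and 21.5 FPKM in siRBM8A. Each siRBM8A library lay far below each siNC library, and the replicates of a group were close together. The mean level was 32.1 ± 0.738 FPKM with siNC and 20.8 ± 1.08 FPKM with siRBM8A (SD, n = 3 each), that is 64.7% (log2 fold change -0.60, SE 0.09, adjusted p = 0.0194, limma). Over 17 alternatives the adjusted p ran up to 0.136 and the log2 fold change from -0.63 to -0.50. The call was lost without siNC replicate 1, 2 or 3 (adjusted p = 0.102, 0.0616 and 0.136) and without siRBM8A replicate 3 (0.116).

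DDX58 was at 48.6, 40.2 and 46.4 FPKM in siNC and at 33.2, 23.4 and 32.5 FPKM in siRBM8A. The groups did not overlap, and replicate 2 was the lowest library of each. The log2 fold change was nearly that of IFIH1, -0.60, but the SE was larger, 0.16, and DDX58 was not called (adjusted p = 0.0726, limma). With the replicate number as a block the adjusted p was 0.00318. DHX58 was at 5.07, 7.21 and 6.57 FPKM in siNC and at 3.72, 7.22 and 4.95 FPKM in siRBM8A. Replicate 2 of both groups was at the same level, and the groups overlapped (log2 fold change -0.24, SE 0.22, adjusted p = 0.536, limma). The log2 fold change of DHX58 was -0.05 without siRBM8A replicate 1 and -0.45 without siRBM8A replicate 2. Leaving out siNC replicate 2 gave -0.14, and leaving out siNC replicate 1 gave -0.36.

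The difference between receptors was also taken within each library, on the log2(FPKM + 1) scale. The difference of IFIH1 from DDX58 averaged -0.47 ± 0.12 in siNC and -0.48 ± 0.20 in siRBM8A (SD, n = 3 each). The exact two-sided permutation test of that difference gave p = 1, and 1 after adjustment over the 3 receptor pairs. DHX58 differed from DDX58 by -2.67 ± 0.35 in siNC and -2.31 ± 0.66 in siRBM8A, and from IFIH1 by -2.20 ± 0.24 and -1.83 ± 0.47. Neither shift was resolved by the exact permutation test (p = 0.5 and 0.4, adjusted p = 0.75 for both). With 3 libraries a group none of these tests could have passed 0.05, so a different response of the 3 receptors was not shown and equal responses were not shown either.

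TLR3, the endosomal receptor of double-stranded RNA, signals through the adaptor TICAM1 and not through MAVS. Its level was 2.92, 2.29 and 2.81 FPKM with siNC and 1.34, 0.834 and 1.41 FPKM with siRBM8A. It had the lowest FPKM of the 10 genes and kept the smallest share of its siNC level, 44.6% (log2 fold change -0.75, SE 0.15, adjusted p = 0.0398, limma). These levels stand on 889 recovered fragments in siNC and 388 in siRBM8A, summed over the libraries. With a pseudocount of 0.1 FPKM the log2 fold change was -1.13. The call was lost without any one siNC library, without siRBM8A replicate 1 or 3, and without a filter on low values, where the adjusted p was 0.113, in a range over the alternatives up to 0.182.

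EIF2AK2 encodes PKR, a kinase that on binding double-stranded RNA phosphorylates the initiation factor eIF2 and lowers translation. EIF2AK2 was at 21.3, 13.8 and 19.3 FPKM in siNC and at 15.5, 6.86 and 11.7 FPKM in siRBM8A. The siNC value of replicate 2 lay below the siRBM8A value of replicate 1, so the groups overlapped. The log2 fold change was -0.67, with an SE of 0.29, and was not called (adjusted p = 0.195, limma). It was -0.38 without siRBM8A replicate 2 and -0.91 without siRBM8A replicate 1. With the replicate block the adjusted p was 0.00607. A protein-coding gene on the opposite strand, GPATCH11, contributes to an overlap of 4.05% of the EIF2AK2 exon bases.

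ADAR deaminates adenosines in double-stranded RNA, and its editing keeps the cell's own duplexes from activating MDA5. ADAR was at 101, 110 and 104 FPKM in siNC and at 69.6, 77.2 and 77.3 FPKM in siRBM8A. The lowest siNC library was well above the highest siRBM8A library. The mean fell from 105 ± 4.43 to 74.7 ± 4.43 FPKM (SD, n = 3 each), to 71.1% (log2 fold change -0.49, SE 0.09, adjusted p = 0.0360, limma). The table gives 1 value per gene, so the interferon-induced and the constitutive ADAR isoforms cannot be told apart. The call was lost without any one siNC library, without siRBM8A replicate 1 or 3, and without a filter on low values (adjusted p = 0.0707), in a range over the alternatives up to 0.185.

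MAVS, the adaptor on the mitochondrial outer membrane, was at 26.0, 28.8 and 27.0 FPKM in siNC and at 28.1, 31.0 and 28.7 FPKM in siRBM8A. The ranges overlapped, with a log2 fold change of 0.10 (SE 0.09, adjusted p = 0.538, limma) that ran from 0.06 without siRBM8A replicate 2 to 0.14 without siNC replicate 2, and was 0.05 with the GC correction. TBK1, the kinase that phosphorylates IRF3, was at 13.3, 7.35 and 10.4 FPKM in siNC and at 10.6, 4.65 and 8.41 FPKM in siRBM8A. Replicates of TBK1 within a group differed more than the group means did (log2 fold change -0.38, SE 0.30, adjusted p = 0.461, limma). The log2 fold change of TBK1 was -0.09 without siRBM8A replicate 2 and -0.20 without siNC replicate 1, and -0.59 and -0.61 without siNC replicate 2 and siRBM8A replicate 1. With the GC correction it was -0.21. TBK1 had an adjusted p of 0.0141 with the replicate block. A gene on the opposite strand, AC135279.3, overlaps 14.7% of the TBK1 exon bases and was listed below 0.15 FPKM in every library.

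IRF3, which is present in most cells before any signal, was at 39.5, 55.2 and 46.6 FPKM in siNC and at 53.6, 78.8 and 57.4 FPKM in siRBM8A. It had the highest log2 fold change of the 10, 0.41 (SE 0.18), was higher in siRBM8A within each same-numbered pair, and was not called (adjusted p = 0.213, limma). The log2 fold change of IRF3 was 0.24 without siRBM8A replicate 2 and 0.53 without siNC replicate 2. With the replicate block the adjusted p was 0.00526. Exons of BCL2L12 on the opposite strand overlap 19.3% of the IRF3 exon bases, and no source used here states whether the counting used strand. BCL2L12 was at 32.9 ± 3.57 FPKM with siNC and 35.9 ± 6.36 FPKM with siRBM8A (SD, n = 3 each, log2 fold change 0.11, adjusted p = 0.675, limma), and its part in the IRF3 value was not tested. IRF7, which interferon induces and which amplifies interferon production, was at 41.0, 57.1 and 43.2 FPKM in siNC and at 39.8, 57.5 and 40.4 FPKM in siRBM8A. Levels of IRF7 were nearly the same in both groups (log2 fold change -0.04, SE 0.19, adjusted p = 0.909, limma). The GC correction gave IRF7 a log2 fold change of -0.21 (adjusted p = 0.0322, limma).

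**Figure D2:**
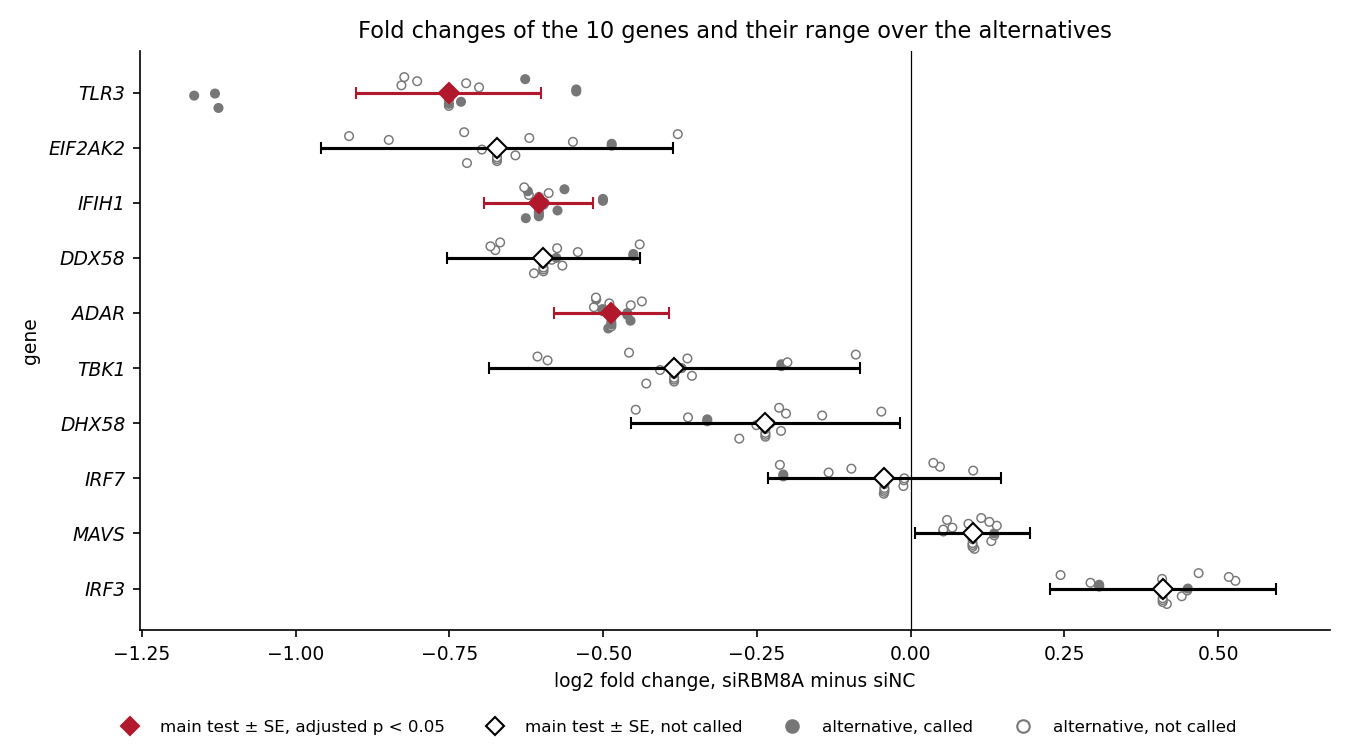
Log2 fold change of siRBM8A minus siNC (horizontal axis) of the 10 genes (vertical axis); diamonds are the main test with SE, red where the adjusted p is under 0.05, and circles are the alternatives, filled where called. The sign is the same in all alternatives for 9 genes and turns for IRF7, and the 3 called genes lose the call in some alternatives.

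Replicate 2 was the lowest or the highest library of its group, in both groups, for 9 of the 10 genes. The share of all genes with this pattern was not counted, so that number is a description only. It was the lowest library in both groups for DDX58, IFIH1, TLR3, EIF2AK2 and TBK1, and the highest in both for DHX58, MAVS, IRF3 and IRF7. For ADAR it was the highest in siNC and in the middle in siRBM8A. The former 5 genes have a GC content of 37.6% to 43.3% in their longest transcript, and the latter 4 of 52.1% to 66.8%. EIF2AK2 in replicate 2 was 0.678 times the mean of the other siNC libraries and 0.504 times that of the other siRBM8A libraries, whereas IRF7 was 1.36 and 1.43 times. The distance was small for IFIH1, at 0.966 and 0.913 times. Over all genes with a GC value, a library's deviation from the gene mean correlated with GC content at 0.355 in siNC replicate 2 and 0.705 in siRBM8A replicate 2. The correlation was -0.562 and -0.407 in siNC replicates 1 and 3, and -0.407 and 0.0536 in siRBM8A replicates 1 and 3. In each same-numbered pair the siRBM8A library had the higher correlation. These values are across genes, which are not independent replicates. With the GC correction the log2 fold changes of DDX58, IFIH1, TLR3, EIF2AK2 and IRF3 were -0.45, -0.50, -0.54, -0.49 and 0.31. Each was nearer 0 than in the main test. Those of DHX58 and ADAR were further from 0, at -0.33 and -0.50. The part of GC content in the fold changes was not tested.

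**Figure D3:**
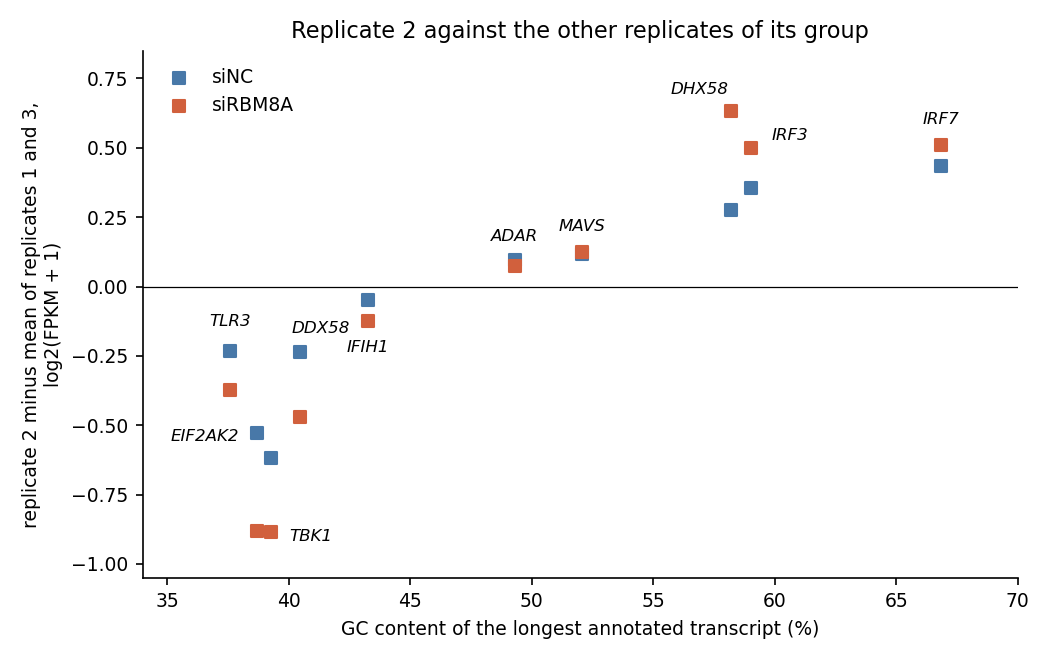
Level in replicate 2 minus the mean of replicates 1 and 3 of the same group, in log2(FPKM + 1) (vertical axis), against the GC content of the longest annotated transcript in percent (horizontal axis), for the 10 genes in siNC and siRBM8A. Genes with a GC content up to 43.3% lie below 0 in both groups, and the other genes lie above 0.

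Compared by replicate number, 6 of the 10 genes were lower in siRBM8A in all 3 pairs, namely DDX58, IFIH1, TLR3, EIF2AK2, ADAR and TBK1, against 35.8% of all genes tested. MAVS and IRF3 were higher in all 3 pairs, against 32.4%. With the replicate number as a block, 7 of the 10 were called, 6 lower and 1 higher, against 40.2% of all genes, 21.3% lower and 18.9% higher. IRF3 was the gene called higher. The labels do not say that same-numbered libraries are pairs, so the p-values with the block hold only under that pairing. DHX58, MAVS and IRF7 were not called in that fit (adjusted p = 0.0950, 0.111 and 0.473, limma). With a GC correction and no block, 7 of the 10 were called as well, 6 lower and 1 higher, against 31.7% of all genes, 16.1% lower and 15.6% higher. TBK1 was not among those 7, and IRF7 was. With both, 9 of the 10 were called, against 40.9%, and MAVS was not. By limma-voom on recovered fragments 3 were called, against 8.01%, and 8 with the block, against 48.4%. Without a filter on low values 1 was called, IFIH1, against 0.846% of all genes.

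Leaving out a library lowered the calls across all genes as well. Without siNC replicate 1, 2 or 3, 0 of the 10 were called, against 0.0947%, 1.04% and 0.0631% of all genes. Without siRBM8A replicate 3, 0 were called, against 0.0158%. Without siRBM8A replicate 1 only IFIH1 was called, against 3.14%. Without siRBM8A replicate 2 all 3 genes of the main test were called, against 4.95%.

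Promoter sequence was available for 7 of the 10 genes, in RefSeq windows of GRCh38.p14 from 250 bases before to 50 bases after a transcript start, 9 windows in all. DHX58, IRF3 and IRF7 had no window in the table used. The windows were searched on both strands for GAAA, any pair of bases and GAAA again, the core of the interferon-stimulated response element that interferon regulatory factors bind. This core was found in the windows of 3 of the 7 genes, IFIH1, TLR3 and EIF2AK2. Among all 27305 genes with a window 4.38% had a match, and 3.57% of all 35116 windows did. The IFIH1 window held 3 matches, of which a pair shared bases, and 0.037% of all windows held 3 or more. The stretches with the matches are shown because they set these 3 sensors side by side. They run along each gene's strand, and capitals mark the core or its reverse complement.
IFIH1, chr2:162318685-162318854, minus strand, bases -170 to -1: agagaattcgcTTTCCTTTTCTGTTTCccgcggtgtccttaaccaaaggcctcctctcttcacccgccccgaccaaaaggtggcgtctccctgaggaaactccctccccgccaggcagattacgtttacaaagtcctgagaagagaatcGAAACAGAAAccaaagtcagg
TLR3, chr4:186069106-186069165, plus strand, bases -50 to 10: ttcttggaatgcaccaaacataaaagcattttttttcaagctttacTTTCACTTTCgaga
EIF2AK2, chr2:37156971-37157030, minus strand, bases -50 to 10: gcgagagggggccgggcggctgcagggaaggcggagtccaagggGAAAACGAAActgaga
In IFIH1 the overlapping pair lay from base -159 to -144 on the strand opposite to the gene, and the third match from -21 to -12 on the gene's strand. In TLR3 and EIF2AK2 the single match spanned the transcript start. These 3 genes had log2 fold changes of -0.60, -0.75 and -0.67, and EIF2AK2, the last of them, was not called. The windows of ADAR, called lower, and of DDX58, TBK1 and MAVS, not called, held no match. Their log2 fold changes were -0.49, -0.60, -0.38 and 0.10. A link between match and fold change was not tested. A match describes letters in the window and does not show binding.

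The genes lie on 9 chromosomes of GRCh38. IFIH1 (ENSG00000115267) spans 162267079 to 162318703 and EIF2AK2 (ENSG00000055332) 37099210 to 37157065, both on the minus strand of chromosome 2. On the minus strand too, ADAR (ENSG00000160710) spans 154582057 to 154628013 of chromosome 1 and DDX58 (ENSG00000107201) 32455705 to 32526324 of chromosome 9. TLR3 (ENSG00000164342) spans 186069152 to 186088069 on the plus strand of chromosome 4. The exons of IFIH1, ADAR, DDX58, TLR3, DHX58, MAVS and IRF7 overlap no exon of another annotated gene (GENCODE 29).

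For the 3 called genes, the genes with the most similar level across the 6 libraries were sought among 7437 genes that averaged at least 5 FPKM. They were RACGAP1, RBM8A and MYO1E for IFIH1, each with a Pearson correlation of 0.999. They were TAF15, PLA2G2A and CAPN2 for ADAR, each at 0.999, and SYTL2, TPR and IARS2 for TLR3, at 0.999, 0.998 and 0.998. The 6 points share their libraries and fall into 2 groups, and the values are descriptions with no p-value.

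The wider pathway was read from a list of 103 other genes, chosen with earlier results of these data known, of which 94 were tested. Of these, 9 fell, 1 rose and 84 were not called, that is 10.6% called against 5.59% of all genes. The median log2 fold change of the list was -0.11. STING1, ZBP1, AIM2, TLR7, TLR8, TLR9, RNF125, TRIM59 and ADARB2 had means below 1 FPKM and were not tested.

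Among cofactors of RIG-I, TRIM25, the ubiquitin ligase that modifies it, fell from 27.8 ± 1.38 to 19.0 ± 1.46 FPKM (SD, n = 3 each, as for the genes that follow; log2 fold change -0.53, adjusted p = 0.0333, limma). DDX60, a helicase induced by interferon, fell from 37.9 ± 4.55 to 20.7 ± 3.89 FPKM (-0.85, adjusted p = 0.0356, limma). The groups did not overlap for TRIM25 and DDX60, nor for ZC3HAV1 and ZCCHC3, which follow. Among the 13 tested cofactors 7 had no overlap, against 31.3% of all genes. ZC3HAV1, the zinc-finger antiviral protein, fell from 21.0 ± 0.695 to 14.8 ± 1.21 FPKM (-0.48, adjusted p = 0.0402, limma). ZCCHC3, an RNA-binding cofactor of RIG-I and MDA5, rose from 15.2 ± 1.57 to 26.0 ± 0.179 FPKM (0.75, adjusted p = 0.0160, limma). Of the 13 tested cofactors 3 fell and 1 rose, 30.8% called against 5.59% of all genes, and with the replicate block 6 were called, 46.2% against 40.2%.

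Among genes of proteins that bind MAVS or TBK1, the death-domain kinase gene RIPK1 fell from 20.2 ± 0.818 to 13.1 ± 0.348 FPKM (log2 fold change -0.59, adjusted p = 0.0194, limma). IFIT3, an interferon-induced protein that bridges MAVS and TBK1, fell from 111 ± 1.85 to 77.4 ± 3.64 FPKM (-0.51, adjusted p = 0.0280, limma). These were 2 of 10 tested genes of MAVS-bound proteins, 20% against 5.59% of all genes. With the replicate block 8 of the 10 were called, 5 lower and 3 higher, 80% against 40.2%. OPTN, a ubiquitin-binding adaptor of TBK1, fell from 22.9 ± 0.872 to 16.0 ± 1.61 FPKM (-0.50, adjusted p = 0.0449, limma). TNFAIP3, the deubiquitinating enzyme A20 and a negative regulator of this signalling, fell from 16.0 ± 1.43 to 8.36 ± 0.133 FPKM (-0.85, adjusted p = 0.0109, limma). TNFAIP3 was the 1 gene called in the main test of 25 tested negative regulators, 4% against 5.59% of all genes. With the replicate block 9 of the 25 were called, 7 lower and 2 higher, 36% against 40.2%.

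PRKRA, which encodes the PKR activator PACT, fell from 7.43 ± 0.727 to 3.74 ± 0.278 FPKM (log2 fold change -0.83, adjusted p = 0.0139, limma). In the main test it was 1 gene called of 20 tested helicases and double-stranded RNA-binding proteins, 5% against 5.59% of all genes. With the replicate block 12 of the 20 were called, 10 lower and 2 higher, 60% against 40.2% of all genes. POLR3B encodes a subunit of RNA polymerase III, which can transcribe foreign DNA into ligands of RIG-I. It fell from 4.16 ± 0.377 to 1.40 ± 0.116 FPKM (-1.10, adjusted p = 0.0101, limma). In the main test POLR3B was 1 gene called of 7 tested genes of cytosolic DNA sensing, 14.3% against 5.59% of all genes. With the replicate block 5 of these 7 were called, 4 lower and 1 higher, 71.4% against 40.2%. Of the 6 tested genes of nucleic acid Toll-like receptors and their adaptors 0 were called by limma in the main test, against 5.59% of all genes. None of the 6 had an unadjusted p under 0.05, against 26.3%. With the replicate block 1 was called, MYD88, lower, against 40.2%. Of 7 other genes of interferon regulatory factors and their binding proteins 0 were called in the main test, against 5.59% of all genes. An unadjusted p under 0.05 (limma) was found for 3 of the 7, against 26.3% of all genes. With the replicate block 5 of these 7 were called, 71.4% against 40.2%: IRF1, IRF8 and IRF2BP2 lower, and IRF5 and IRF2BP1 higher. Without siNC replicate 1, siNC replicate 3 or siRBM8A replicate 3, 0 of the 94 genes were called, against 0.0947%, 0.0631% and 0.0158% of all genes. Shares this small leave almost no calls to be found among 94 genes. With the replicate block 49 of the 94 were called, 36 lower and 13 higher, that is 52.1% against 40.2% of all genes.

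**Figure D4:**
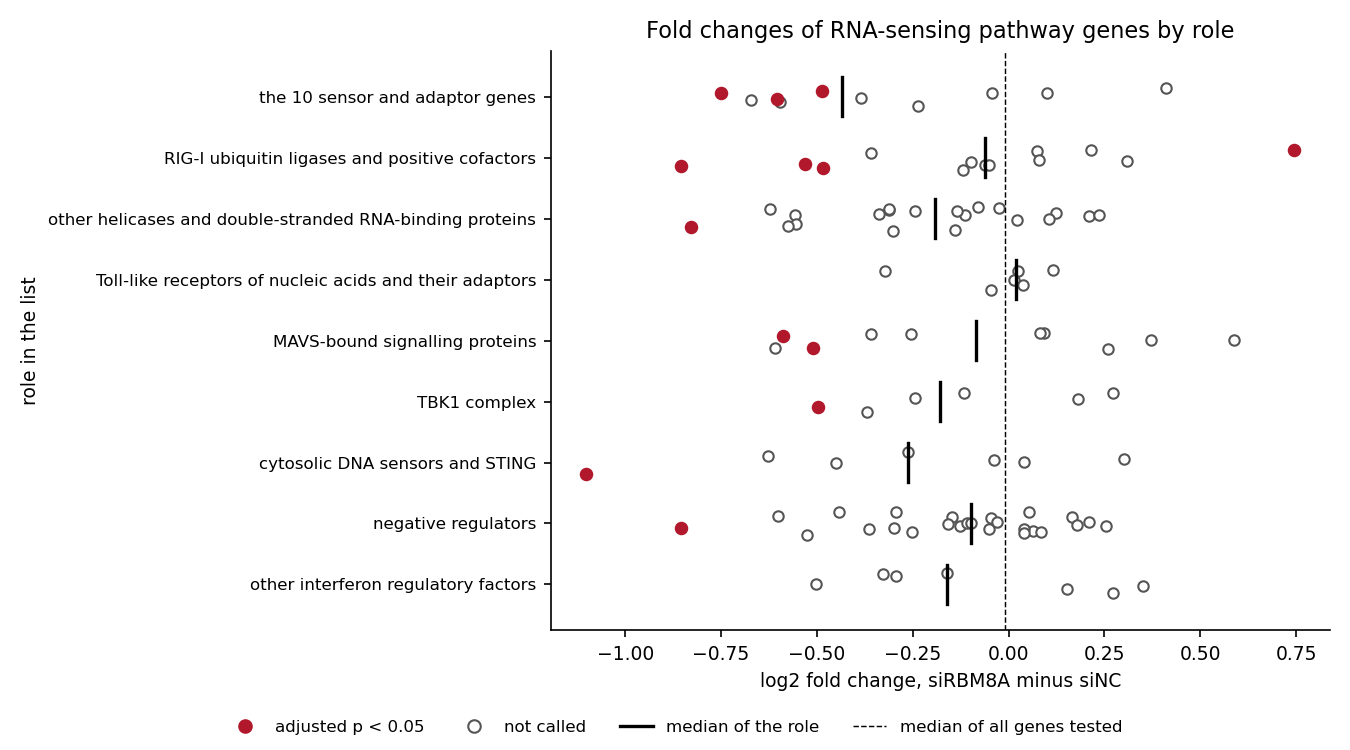
Log2 fold change of siRBM8A minus siNC (horizontal axis) for the 10 sensor and adaptor genes and 94 other tested pathway genes by role (vertical axis); red points have an adjusted p under 0.05, bars are medians by role, and the dashed line is the median of all genes tested. The 10 genes have a median of -0.44 and the other genes spread on both sides of the median of all genes, -0.01.

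Interferon transcripts, the output of this pathway, were detected in both groups. Of 21 interferon genes, 5 had a mean of at least 1 FPKM and 12 were at 0 in every library. IFNL1, a type III interferon gene, was at 8.35, 12.7 and 9.22 FPKM in siNC and at 9.07, 11.9 and 8.52 FPKM in siRBM8A. These ranges nearly coincided (log2 fold change -0.03, SE 0.18, adjusted p = 0.942, limma). IFNB1, an early type I interferon gene, was at 1.61, 1.24 and 1.46 FPKM in siNC and at 1.99, 1.15 and 1.61 FPKM in siRBM8A, on 61 and 66 fragments in all (log2 fold change 0.07, SE 0.16, adjusted p = 0.806, limma). The SE of IFNB1 was more than its log2 fold change, so a change of that size could not be resolved at this depth.

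IFNL2 was at 1.79, 2.21 and 2.27 FPKM in siNC and at 1.12, 1.34 and 1.07 FPKM in siRBM8A, without overlap (log2 fold change -0.51, adjusted p = 0.0627, limma), and with the replicate block its adjusted p was 0.0175. IFNL3 was at 1.87, 2.60 and 1.94 FPKM in siNC and at 0.840, 2.40 and 0.768 FPKM in siRBM8A (-0.49, adjusted p = 0.295, limma). IFNL2 and IFNL3 are nearly identical in sequence, and their split of reads is uncertain. IFNE, an epithelial type I interferon gene, was at 1.40 ± 0.440 FPKM with siNC and 0.640 ± 0.231 FPKM with siRBM8A (SD, n = 3 each, log2 fold change -0.54, adjusted p = 0.127, limma).

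Of the receptor chains, IFNAR1 was at 9.54 ± 1.21 FPKM with siNC and 7.12 ± 1.99 FPKM with siRBM8A (log2 fold change -0.40, adjusted p = 0.252, limma, and 0.0279 with the replicate block). IFNLR1, the specific chain of the type III receptor, was at 1.23 ± 0.169 and 1.43 ± 0.116 FPKM (0.13, adjusted p = 0.559, limma). The other receptor chains listed, IFNAR2 and IL10RB, had means of 0.459 and 0.0832 FPKM over the 6 libraries and were not tested. None of the 7 tested genes of this list was called by limma in the main test, and 2 had an unadjusted p under 0.05, IFNL2 and IFNE, against 26.3% of all genes tested. By limma-voom on recovered fragments 0 of the 7 were called, against 8.01% of all genes, and 2 with the replicate block, IFNE and IFNAR1, against 48.4%. With the GC correction IFNL2 and IFNL3 were called lower (log2 fold change -0.62 and -0.61, adjusted p = 0.00861 and 0.0340, limma), 2 of 7 against 31.7%. With the replicate block alone 2 of 7 were called, IFNL2 and IFNAR1, against 40.2%.

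**Figure D5:**
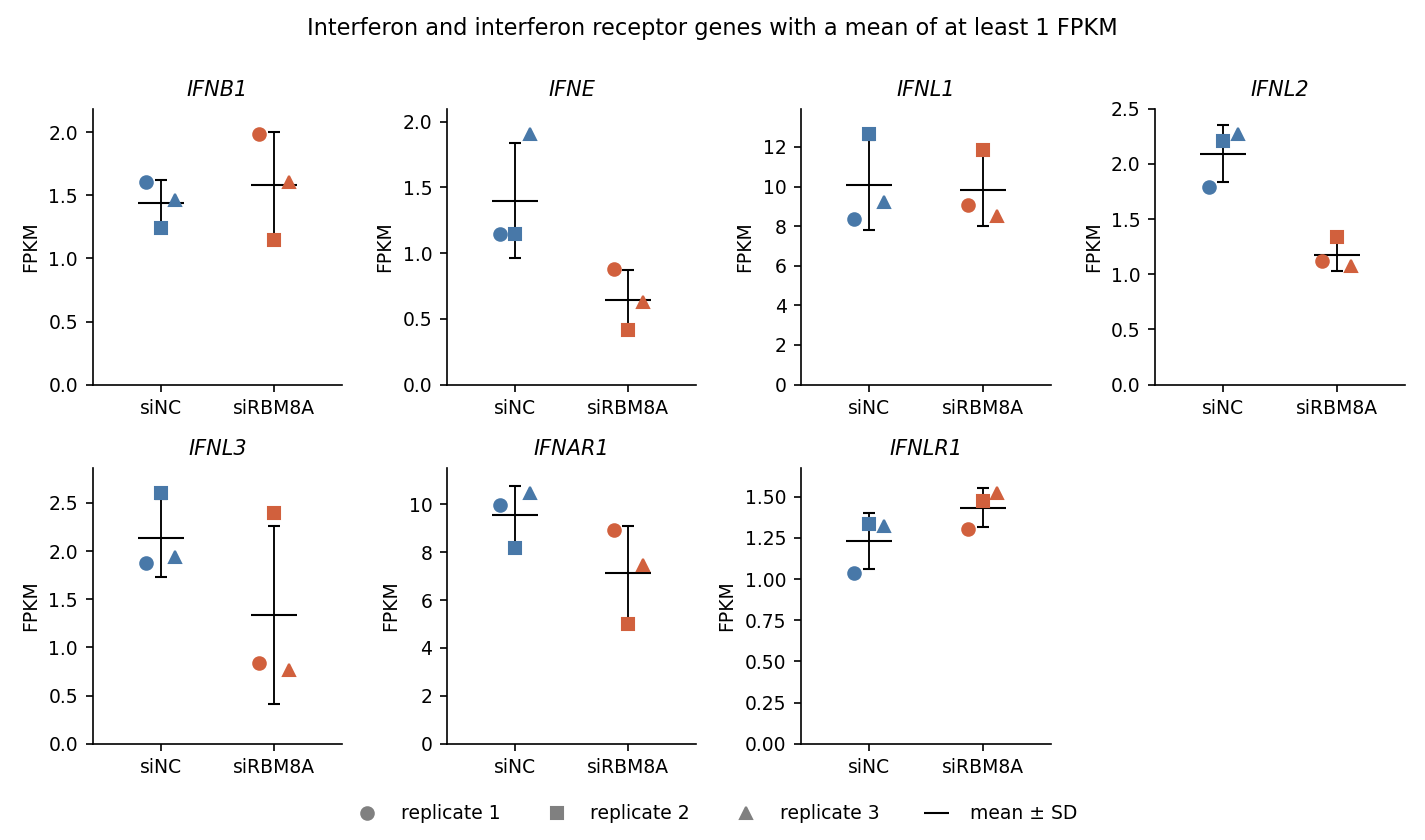
Level in FPKM (vertical axes, from 0) of the 5 interferon genes and 2 receptor genes that averaged at least 1 FPKM, by siRNA (horizontal axes); points are libraries, with the mean and SD of 3 replicates. IFNL1 and IFNB1 overlap between the groups, and IFNL2 and IFNE do not.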

How the data were processed

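RNA with poly(A) tails from 6 AGS cultures was sequenced, 3 with siNC and 3 with siRBM8A. Reads were aligned to GRCh38, and HISAT2 and StringTie are named in the submitters' processing notes. No source used here gives versions or the strand setting. The authors deposited 1 table of FPKM values per gene and library. All 58735 gene IDs matched GENCODE 29, and 12 symbols that had turned into dates were taken by ID.

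With all annotated exon bases of a gene as its length, each FPKM was a whole number of fragments at a tolerance of 0.001, which gave the depth. Median-of-ratios size factors of the deposited values were 1 in every library. A count of 3 fragments, the limit that a count of 0 allows, corresponds to 0.0883 to 0.0987 FPKM for a transcript of 2 kb. This covers counting error only.

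Genes averaging at least 1 FPKM were tested with limma 3.58.1 (R 4.3.3) on log2(FPKM + 1), with a variance trend and no covariate. Adjusted p-values are Benjamini-Hochberg over all genes tested. Single values were also compared by exact two-sided permutation tests with scipy 1.17.1. The scripts were tested on simulated data.

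Labels do not say what shared replicate numbers mean. Deviations from the group mean of same-numbered libraries correlated at 0.507, 0.663 and 0.102 over 12678 genes, all above 0.1. On the data, not the labels, libraries with the same number were therefore taken as pairs in the fits with the replicate block. That pairing was chosen from the same values that these fits then test. It is not shown to be real, and the p-values of these fits depend on it. Replicate 2 of both groups shared a trend with GC content, and its part in these correlations was not tested. For replicate 3 another pairing correlated more, at 0.258 and 0.187.

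The alternatives were a pseudocount of 0.1 FPKM, no filter, a mean of at least 5 FPKM, median-of-ratios scaling, the replicate block, no variance trend, limma-voom on recovered fragments and leaving out each library. Median-of-ratios scaling could not differ from the main test, because its size factors were 1 in every library. Scaling to total recovered fragments, a GC correction (loess, span 0.3) with and without the block, and voom with the block were chosen after seeing the data.

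The text names the 10 genes, up to 15 called genes of the pathway list by smallest adjusted p, interferon genes averaging at least 1 FPKM, and the 3 most correlated genes per called gene. Genes on the opposite strand, markers, untested genes and genes called only with the replicate block were named outside that rule, after their values were seen. The 10 genes and the lists were chosen with earlier results of these data known.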

Additional observations from a re-analysis of the deposited data

How the results depend on the processing

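Of the 10 genes, 3 were called in the main test. That number was 1 without a filter on low values, 7 with the replicate block, 7 with the GC correction, 9 with both, and 8 by limma-voom with the block, and it ran from 0 to 3 when 1 library was left out. Over the same settings the pathway list went from 10 to 6, 49, 35, 47 and 55, and from 0 to 9. All genes went from 709 to 268, 5096, 4024, 5179 and 6142. When 1 library was left out they ran from 2 to 628: 12, 132 and 8 without siNC replicates 1, 2 and 3, and 398, 628 and 2 without siRBM8A replicates 1, 2 and 3. The fit with the replicate block, a pairing chosen from the data, thus changed the call of DDX58, EIF2AK2, TBK1 and IRF3 among the 10, and of no other. A pseudocount of 0.1 FPKM, a mean of at least 5 FPKM, scaling to total fragments, no variance trend and voom without the block left all genes between 574 and 1015. Voom called 1015 genes on the recovered fragments, of which 100% were whole. Of the main calls 43.0% were higher, against 58.3% under scaling to total fragments and 55.0% by voom, while 8 of the 10 genes stayed negative under both. RBM8A kept a log2 fold change of -2.05 to -1.83 when 1 library was left out. Its call was lost without siRBM8A replicate 3. IRF7 turned to 0.10, 0.05 and 0.04 without siNC replicate 2, siRBM8A replicate 1 and siRBM8A replicate 3, and ran from -0.21 to 0.10. The IFIH1 minus DDX58 difference ran from -0.122 to 0.0608, and the DHX58 minus DDX58 difference from -0.0064 to 0.64, so both changed sign. The cause of these changes was not tested. With 3 libraries a group and under 100 fragments a group for IFNB1, IFNL2 and IFNL3, small differences are beyond this design.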
